A study of Mus musculus with 13 samples.

Results

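Transcripts of 9 genes that effector T cells are known to carry were followed in T cells sorted from B16-F10 tumors, a mouse melanoma grown under the skin. The genes are S100a4, S100a6, S100a10 and S100a11 of the S100 family, the annexin genes Anxa1 and Anxa2, the galectin genes Lgals1 and Lgals3, and Vim, which encodes vimentin. They were chosen by symbol, with earlier results of these data known, so the shares of all genes given beside their counts are descriptive. They are 9 of the 12963 genes in the deposited table, and all 9 passed the filter on low values that left 12667 genes to test. All mice, controls included, were Foxp3-EGFP-DTR adults of both sexes, whose own Foxp3 gene drives EGFP together with a diphtheria toxin receptor of human origin. Diphtheria toxin (DTx) therefore kills regulatory T (Treg) cells in these animals, and PBS spares them. The 13 libraries of bulk RNA fell into 5 groups. The PBS mice gave Treg cells (Treg PBS, n = 3), conventional CD4 cells (CD4 PBS, n = 2) and CD8 cells (CD8 PBS, n = 2), where conventional T (Tconv) means lacking the Foxp3 reporter. The mice given toxin gave the same CD4 (CD4 DTx, n = 3) and CD8 (CD8 DTx, n = 3) populations. Toxin was given only to the mice that lost their Treg cells, so the toxin and the loss of these cells cannot be told apart.

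S100 proteins are small calcium-binding proteins that work inside the cell by docking to targets such as annexins and myosin. Annexins bind membrane phospholipids when calcium rises and serve in membrane repair and trafficking, galectins bind galactose-bearing glycans on cell surface proteins, and vimentin forms the intermediate filaments of lymphocytes. The genes are known for being low in naive T cells and higher in effector, memory and tissue Treg cells, and S100a10 and Anxa2 encode the partners of a single membrane complex.

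The labelled cell types were checked on their defining genes. The CD4 PBS and CD4 DTx libraries held Cd4 at 17780.0 normalized reads or more, the CD8 libraries held Cd8a at 23475 or more, and Foxp3 stood at 1178 to 1897 in Treg PBS and at 12.1 or less elsewhere. The CD4 DTx libraries also held Cd8a, at 103, 711 and 1302 against 31.4 and 26.4 in CD4 PBS, and Cd8b1, at 267, 1641 and 2359.9 against 529 and 589, while Cd4 reached 413 in CD8 DTx. CD4 DTx replicate 1, lowest of its group in Cd8a and Cd8b1, was the highest of that group in 8 of the 9 genes, and the part of CD8 transcripts in the CD4 result was not tested. A normalized read is a read divided by the size factor of its library. Each library held between 15947556 and 34140486 whole reads, so that 3 reads, the floor taken for detection, equalled 1.98 to 4.10 normalized reads. No value of the 9 genes came near that floor. Replicate 3 of every group lacked Xist and held Y-linked transcripts at 5932 to 7896 normalized reads, whereas replicates 1 and 2 held Xist at 942 to 5798 and no Y-linked transcripts. Sex and the day of replicate 3 therefore cannot be told apart. Nothing in the sources beyond separate isolation days says how many mice each library came from, so the p-values measure the spread between these libraries.

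In the GRCm38 annotation, S100a4 (chr3:90603771-90606045) and S100a6 (chr3:90612882-90624181) are neighbours on chromosome 3, and S100a11 (chr3:93520488-93526287) and S100a10 (chr3:93555080-93564643) form another pair of neighbours there. The other genes lie on chromosomes of their own, with Anxa1 at chr19:20373428-20390944, Anxa2 at chr9:69453620-69491795, Lgals1 at chr15:78926725-78930465, Lgals3 at chr14:47367751-47386160 and Vim at chr2:13573927-13582826. Anxa1 lies on the minus strand and the rest on the plus strand. S100a4 overlaps Gm42674, Anxa1 overlaps the opposite-strand transcript 1500015L24Rik, and Anxa2 overlaps Mir3109 and the antisense Gm16144. The strand setting of the counting is not given in the sources used here, so reads of these overlapping transcripts cannot be told from those of the 3 genes. The authors aligned to the older NCBIM37 build, and all positions here are those of GRCm38.

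RefSeq windows of 250 bases before the transcript start (GRCm38.p6) were found for 7 of the 9 genes, all but S100a10 and Lgals1. The 4 below stand for the patterns described next. Anxa1 and Lgals3 stand for genes lower in Treg PBS than in all DTx libraries, and S100a4 and Anxa2 for genes whose Treg PBS and DTx libraries overlapped. They end at the RefSeq start, which for Anxa1, Anxa2 and Lgals3 lies inside the span given above. Capitals mark matches to the motifs searched.
Anxa1 (chr19:20390672-20390921, - strand): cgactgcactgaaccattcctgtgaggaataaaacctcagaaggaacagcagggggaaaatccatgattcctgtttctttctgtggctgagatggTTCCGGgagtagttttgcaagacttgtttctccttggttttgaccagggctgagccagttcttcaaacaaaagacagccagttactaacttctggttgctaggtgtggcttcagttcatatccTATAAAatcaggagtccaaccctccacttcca
Lgals3 (chr14:47373610-47373859, + strand): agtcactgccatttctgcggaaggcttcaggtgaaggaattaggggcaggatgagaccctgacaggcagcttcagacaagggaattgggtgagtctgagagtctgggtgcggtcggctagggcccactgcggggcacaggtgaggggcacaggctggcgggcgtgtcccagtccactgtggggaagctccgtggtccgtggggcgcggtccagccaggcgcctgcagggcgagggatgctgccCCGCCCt
S100a4 (chr3:90603520-90603769, + strand): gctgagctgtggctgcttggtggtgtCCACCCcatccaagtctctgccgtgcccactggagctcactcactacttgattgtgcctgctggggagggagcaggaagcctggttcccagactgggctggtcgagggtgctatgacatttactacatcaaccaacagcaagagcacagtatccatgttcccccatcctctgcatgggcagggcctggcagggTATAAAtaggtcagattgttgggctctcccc
Anxa2 (chr9:69453433-69453682, + strand): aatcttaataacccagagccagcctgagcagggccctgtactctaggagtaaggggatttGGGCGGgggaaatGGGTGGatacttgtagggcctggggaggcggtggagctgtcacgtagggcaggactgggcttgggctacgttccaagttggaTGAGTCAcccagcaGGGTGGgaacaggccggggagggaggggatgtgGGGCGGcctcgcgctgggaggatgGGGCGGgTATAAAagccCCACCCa
The motifs were the TATA box (TATAAA, forward strand only) and, on both strands, the GC box (GGGCGG), a KLF motif (CCACCC), an AP-1 motif (TGANTCA), an ETS motif (CCGGAA), a RUNX motif (TGTGGT), a STAT motif (TTCNNNGAA) and the NF-kB motif, with overlap between motifs allowed. A TATA box stood in 4 of 7 windows, 32 bases before the start in Anxa1 and Vim, 31 in S100a4 and 17 in Anxa2, against 8.12% of all 27025 windows of this length. The AP-1 letters occurred in Anxa2 and S100a11 (6.87% of all windows), the ETS letters in Anxa1 and Vim (12.2%), and the RUNX letters in S100a6 (14.2%). The KLF letters occurred in Anxa2, S100a4 and Vim (27.7%) and the GC box in Anxa2, Lgals3 and S100a11 (32.9%). The STAT letters (7.18% of all windows) and the NF-kB letters (0.337%) were in none of the 7. No motif was shared by all 7 windows, and a match is a match of letters only.

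**Figure D1:**
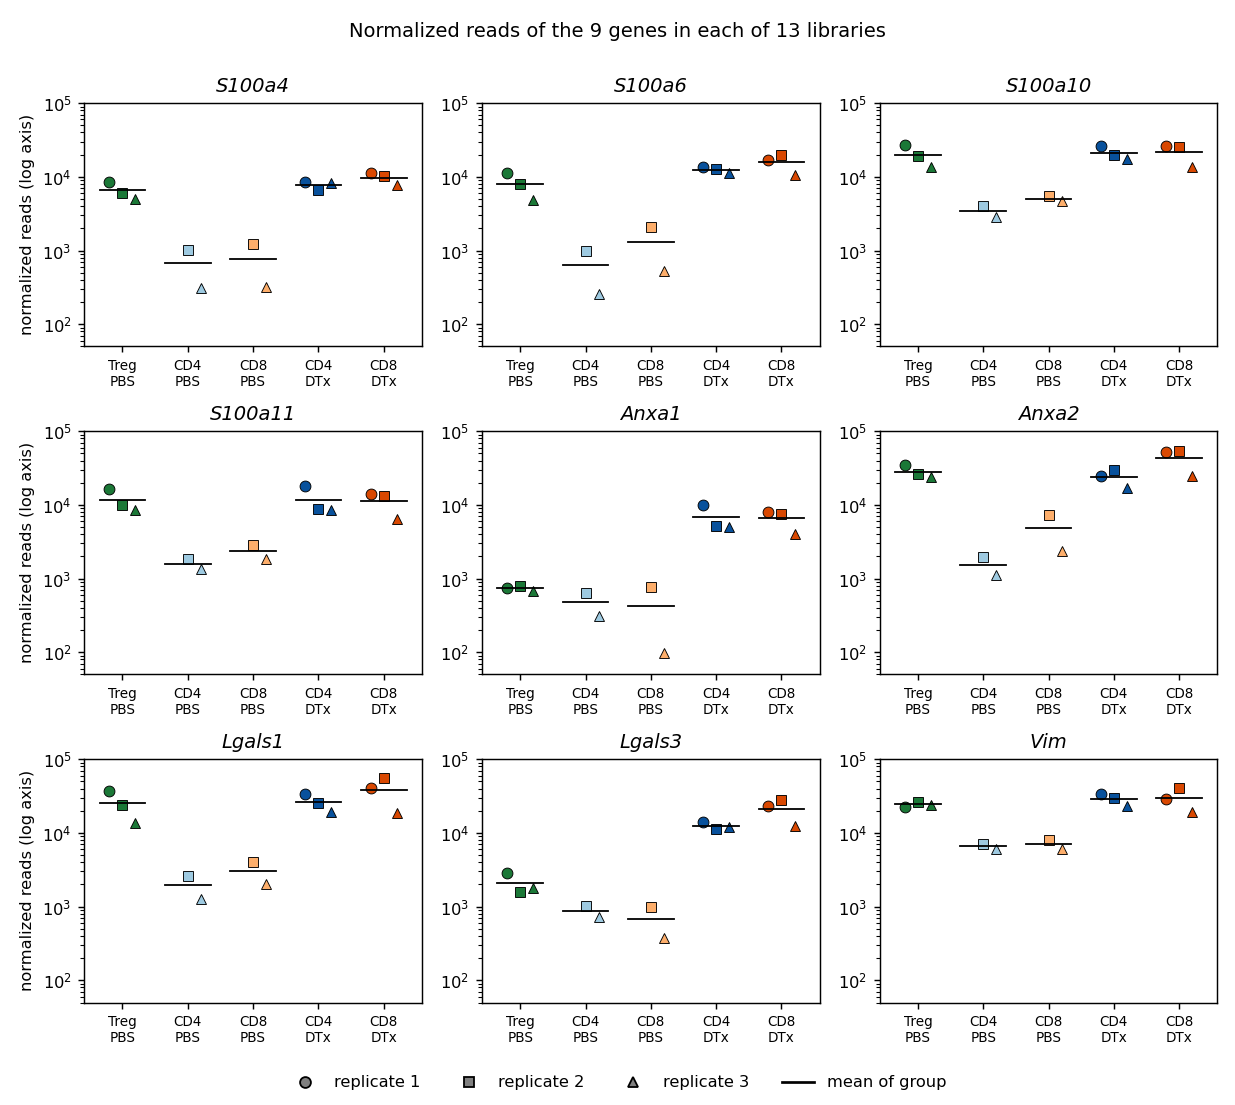
Normalized reads (log axis) of the 9 genes in each of the 13 libraries, by group, with a symbol for each replicate number and a line at each group mean. In 7 panels Treg PBS overlaps the DTx groups and lies above the PBS Tconv groups, whereas the Treg PBS libraries of Anxa1 (677 to 804) and Lgals3 (1578 to 2844) sit below all DTx libraries.

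The genes fell into 2 patterns, visible in the plot of values by library. The S100 genes, Anxa2, Lgals1 and Vim were high in Treg PBS, low in both PBS Tconv groups and high in both DTx groups. Anxa1 and Lgals3 were low in all 3 PBS groups and high in both DTx groups. Among the PBS groups, the Treg PBS libraries of Lgals3 all lay above those of both Tconv groups. Together the 9 genes took 0.400% to 0.653% of a Treg PBS library and 0.0632% to 0.0980% of a CD4 PBS library, beside 0.0807% to 0.150% for CD8 PBS. They took 0.515% to 0.716% of a CD4 DTx library and 0.497% to 0.924% of a CD8 DTx library. These shares overlapped among Treg PBS and both DTx groups and lay above all shares of the PBS Tconv groups. In bulk RNA, fewer cells that express a gene and less of its RNA per cell cannot be told apart.

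A gene was called when its Benjamini-Hochberg adjusted p, over all tested genes in limma, was under 0.05. Fold changes are on the scale of log2(normalized reads + 1), with the standard error (SE) of the fit. Treg PBS exceeded CD4 PBS for 7 of the 9 genes (13.5% of all tested genes were called higher), and 6 of these passed 4-fold (7.85% of all). Against CD8 PBS, Treg PBS was higher for 8 of 9 (11.9% of all), of which 5 passed 4-fold (6.56% of all). CD4 DTx exceeded CD4 PBS for 9 of 9 (8.64% of all), each by more than 4-fold (5.06% of all), and CD8 DTx exceeded CD8 PBS for 9 of 9 (7.4% of all), again each by more than 4-fold (3.87% of all). Every library of the first group lay above every library of the second for 9 of 9 genes in Treg PBS against CD4 PBS (29.2% of all), 8 against CD8 PBS (29.7%), and 9 and 9 in the CD4 and CD8 comparisons with DTx (23.4% and 22.8%). The median log2 fold change of the 9 was 2.82 in Treg PBS against CD4 PBS, 3.82 in CD4 cells with DTx and 3.61 in CD8 cells with DTx, beside 0.01, -0.04 and -0.03 over all tested genes. Treg PBS and CD4 DTx were set against the same CD4 PBS libraries, and Treg PBS and CD8 DTx against the same CD8 PBS libraries. The CD8 calls come from a fit over all 5 groups. A fit on the CD8 libraries alone called 1 of 9, Lgals3, with the other adjusted p values between 0.0539 and 0.0797. That fit called 239 of all 12667 tested genes in either direction, against 1377 in the fit over all 5 groups. Leaving out CD8 PBS replicate 3 with all groups in the fit left 1 library in CD8 PBS. Fewer of the 9 genes, and fewer of all tested genes, were then called with DTx in CD8 cells and in Treg PBS against CD8 PBS.

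**Figure D2:**
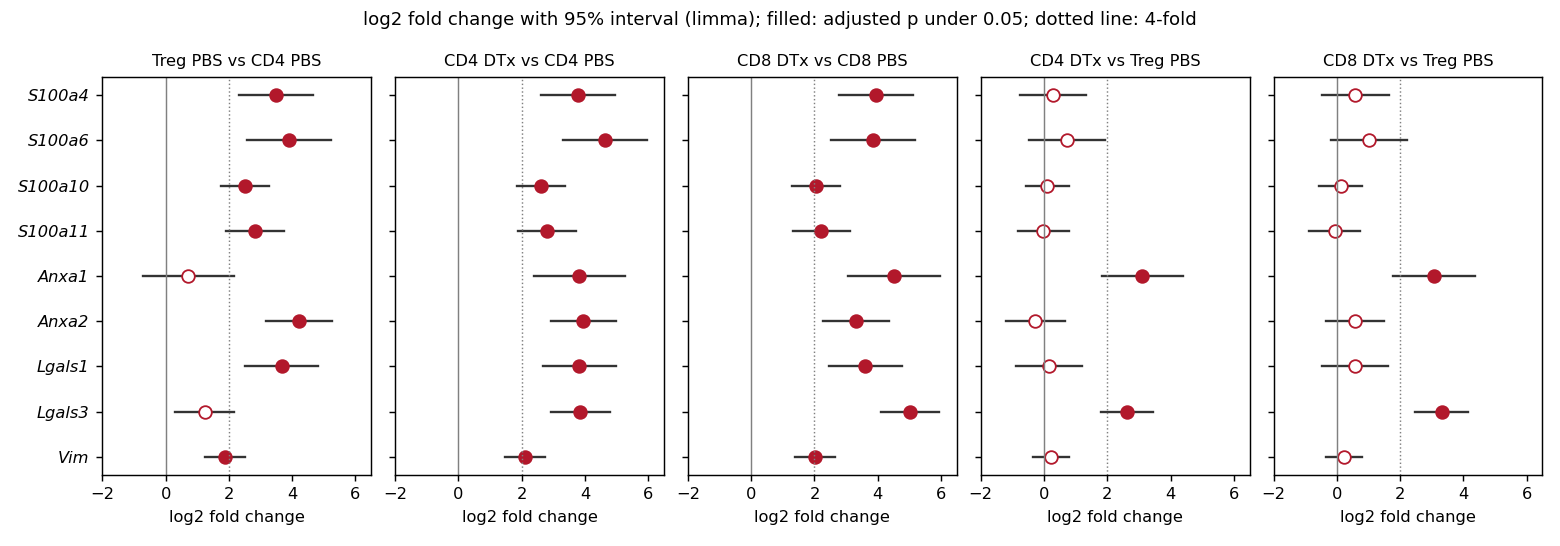
Differences of the 9 genes on the log2 scale (first group minus second) with 95% intervals from limma, in 5 comparisons. Filled points passed an adjusted p under 0.05 and the dotted line marks 4-fold. Against Treg PBS the filled points are Anxa1 and Lgals3, in both DTx groups.

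S100a4, whose product binds non-muscle myosin and is known from motile cells, was read at 8644, 6089 and 4955 normalized reads across the Treg PBS libraries, 1025 and 311 in those of CD4 PBS and 1221 and 317 in those of CD8 PBS, in order of replicate number. With DTx it was read at 8609.7, 6606 and 8324 across the CD4 libraries and 11108, 10289 and 7793 across the CD8 libraries. All Treg and DTx libraries lay above all PBS Tconv libraries, and the DTx libraries overlapped those of Treg PBS. The log2 fold change with DTx was 3.78 ± 0.54 (SE) in CD4 cells (adjusted p = 7.03e-04) and 3.95 ± 0.54 in CD8 cells (adjusted p = 0.00118), and that of Treg PBS over CD4 PBS was 3.50 ± 0.54 (adjusted p = 7.53e-04). The CD4 PBS and CD8 PBS pairs were the least even, with a standard deviation of 75.6% and 83.1% of the mean against 13.8% in CD4 DTx. Without CD4 PBS replicate 2 or 3 the CD4 change was 4.64 or 2.93, and the difference of Treg PBS 4.36 or 2.64. Without CD8 PBS replicate 2 or 3 the CD8 change was 4.92 or 2.98, and the difference of Treg PBS from CD8 PBS, 3.36 with all libraries, was 4.33 or 2.39.

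S100a6, its neighbour, encodes calcyclin, a protein first known from growing cells. It was read at 11268, 7968 and 4794 normalized reads across the Treg PBS libraries, 1002 and 256 in those of CD4 PBS and 2109 and 532 in those of CD8 PBS. After DTx the values were 13701, 12821 and 11169 across the CD4 libraries and 17137, 19731 and 10480.0 across the CD8 libraries. The groups split as for S100a4, and S100a6 had the largest CD4 change of the 9 genes, a log2 fold change of 4.63 ± 0.61 (SE, adjusted p = 5.00e-04). The CD8 change was 3.85 ± 0.61 (adjusted p = 0.00248), and Treg PBS exceeded CD4 PBS by 3.90 ± 0.61 (adjusted p = 8.83e-04). Without the replicate 3 libraries the CD4 change of Anxa2 was larger (3.78 against 3.72). This gene too rested on an uneven pair of controls. Without CD8 PBS replicate 3 the CD8 change was 2.85 and no longer called (adjusted p = 0.0563), and without CD8 PBS replicate 2 it was 4.84. Treg PBS over CD8 PBS was 2.83, and 3.82 or 1.84 without CD8 PBS replicate 2 or 3, the latter not called (adjusted p = 0.130). Without CD4 PBS replicate 2 or 3, the CD4 change was 5.61 or 3.64 and the difference of Treg PBS from CD4 PBS 4.88 or 2.91.

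S100a10, the S100 partner of annexin A2, was read at 27209, 19377 and 13591 normalized reads across the Treg PBS libraries, 4074 and 2858 in those of CD4 PBS and 5516 and 4635 in those of CD8 PBS. In DTx mice it was read at 25919, 19937 and 17395 across the CD4 libraries and 26539.9, 25682 and 13500.4 across the CD8 libraries. Its control pairs were more even than those of S100a4 and S100a6, and CD4 PBS lay wholly below CD8 PBS, a difference that was not called (log2 fold change -0.57, 95% interval -1.39 to 0.26). Including S100a10, 2 of the 9 genes had CD4 PBS wholly below CD8 PBS, the other being Anxa2 (21.7% of all tested genes did). The change with DTx was 2.61 ± 0.35 (log2, SE) in CD4 cells (adjusted p = 5.10e-04) and 2.05 ± 0.35 in CD8 cells (adjusted p = 0.00359). Without CD8 PBS replicate 3 the CD8 change was 1.93 and not called (adjusted p = 0.0662).

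S100a11, which encodes a calcium-binding protein known to dock to annexin A1, was read at 16193, 10065 and 8464 normalized reads across the Treg PBS libraries, 1834 and 1345 in those of CD4 PBS and 2833 and 1833 in those of CD8 PBS. The DTx libraries read 17819.7, 8798 and 8440.0 across the CD4 libraries and 14134, 13065 and 6455 across the CD8 libraries. The means of Treg PBS (11574), CD4 DTx (11686) and CD8 DTx (11218) lay closer together than those of the other 8 genes. The change with DTx was 2.80 ± 0.42 (log2, SE) in CD4 cells (adjusted p = 9.80e-04) and 2.22 ± 0.42 in CD8 cells (adjusted p = 0.00598), the latter 1.90 and not called without CD8 PBS replicate 3 (adjusted p = 0.110). S100a10 and S100a11 had nearly the same profile, with a root mean square difference of 0.208 (log2) between their centred values over the 13 libraries, the smallest among the 9 genes.

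Anxa2, the annexin of the S100a10 complex, was read at 34535, 26024 and 23907 normalized reads across the Treg PBS libraries, 1964 and 1129 in those of CD4 PBS and 7359 and 2361 in those of CD8 PBS. Toxin-treated mice gave 24476, 29669.6 and 16910.2 across the CD4 libraries and 52418, 54192 and 24916 across the CD8 libraries. It had the largest difference of the 9 genes between Treg PBS and CD4 PBS, 4.22 ± 0.47 (log2, SE, adjusted p = 1.04e-04), and the CD4 PBS mean was 5.49% of the Treg PBS mean. Without CD4 PBS replicate 2 that of S100a6 was larger (4.88 against 4.62). The change with DTx was 3.95 ± 0.47 in CD4 cells (adjusted p = 2.71e-04) and 3.31 ± 0.47 in CD8 cells (adjusted p = 0.00159). Leaving out CD8 PBS replicate 2 or 3 moved the CD8 change to 4.13 or 2.49, and the difference of Treg PBS from CD8 PBS from 2.74 to 3.56 or 1.92. Anxa2 was lower in CD4 DTx than in CD8 DTx in all 3 pairs of libraries with the same number, at 0.467, 0.547 and 0.679 times the CD8 value. That difference was not called (log2 fold change -0.84, 95% interval -1.77 to 0.08, adjusted p = 0.507), nor with the replicate number as a block (adjusted p = 0.0875). Lgals3 was also lower in all 3 pairs, at 0.606, 0.405 and 0.968 times, and was not called (adjusted p = 0.565).

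Anxa1 encodes annexin A1, a phospholipid-binding protein that also acts outside the cell on formyl peptide receptors. It was read at 739, 804 and 677 normalized reads across the Treg PBS libraries, 639.6 and 315 in those of CD4 PBS and 762 and 98.6 in those of CD8 PBS. With DTx the values were 10066, 5129 and 5041 across the CD4 libraries and 8091, 7439.6 and 4079.7 across the CD8 libraries. All 6 DTx libraries lay above all 7 PBS libraries, Treg cells included. The change with DTx was 3.83 ± 0.66 (log2, SE) in CD4 cells (adjusted p = 0.00254) and 4.51 ± 0.66 in CD8 cells (adjusted p = 0.00174), the latter 5.97 or 3.04 without CD8 PBS replicate 2 or 3. Treg PBS was not called against CD4 PBS, where a 4-fold difference lay inside the interval (log2 fold change 0.72, 95% interval -0.73 to 2.16, adjusted p = 0.466). Against CD8 PBS it was not called either (1.42, -0.02 to 2.87, adjusted p = 0.154), but that value depended on 1 library, being 2.89 and called without CD8 PBS replicate 2 (adjusted p = 0.00371) and -0.05 without CD8 PBS replicate 3.

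Lgals1 encodes galectin-1, a secreted lectin made by Treg cells that can restrain other T cells. It was read at 37534, 24187 and 13559 normalized reads across the Treg PBS libraries, 2635 and 1252 in those of CD4 PBS and 3989 and 2009 in those of CD8 PBS. In DTx mice the values were 34218, 25479 and 19325 across the CD4 libraries and 40846, 55014 and 18370.2 across the CD8 libraries. The CD4 DTx mean was 105% and the CD8 DTx mean 152% of the Treg PBS mean, with libraries that overlapped. The change with DTx was 3.82 ± 0.53 (log2, SE) in CD4 cells (adjusted p = 6.68e-04) and 3.61 ± 0.53 in CD8 cells (adjusted p = 0.00175), and Treg PBS exceeded CD4 PBS by 3.67 ± 0.53 (adjusted p = 5.39e-04). Per kilobase of transcript, Lgals1 had the highest level of the 9 genes in Treg PBS (31370 normalized reads per kb), CD4 DTx and CD8 DTx, while S100a10 was highest in CD4 PBS and CD8 PBS. Anxa1 was the lowest of the 9 per kilobase in all 5 groups, at 442 normalized reads per kb in Treg PBS and 4029 in CD4 DTx.

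Lgals3 encodes galectin-3, a lectin that cross-links surface glycoproteins and binds the inhibitory receptor LAG-3. It was read at 2844, 1578 and 1785 normalized reads across the Treg PBS libraries, 1015 and 713 in those of CD4 PBS and 999.9 and 376 in those of CD8 PBS. After DTx it stood at 13891, 11305 and 11884 across the CD4 libraries and 22912, 27936 and 12279.6 across the CD8 libraries. As for Anxa1, all DTx libraries lay above all PBS libraries. Lgals3 had the largest CD8 change of the 9 genes, 5.02 ± 0.42 (log2, SE, adjusted p = 1.21e-04), and leaving out CD8 PBS replicate 2 or 3 moved it to 5.72 or 4.31. Without CD8 PBS replicate 2 the change of Anxa1 was larger (5.97). The CD4 change was 3.85 ± 0.42 (adjusted p = 1.82e-04). Treg PBS lay above CD4 PBS in every library, with a difference of 1.23 (95% interval 0.31 to 2.16) that was not called (adjusted p = 0.0589) but was with DESeq2 (adjusted p = 0.0177) and with the replicate block (adjusted p = 0.0357). Against CD8 PBS the difference was 1.70 ± 0.42 (adjusted p = 0.0153). It was 2.41 without CD8 PBS replicate 2, and not called without CD8 PBS replicate 3 (1.0, adjusted p = 0.234) or Treg PBS replicate 1 (1.45, adjusted p = 0.0576).

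Vim was read at 22586, 26366 and 24008 normalized reads across the Treg PBS libraries, 7162 and 6081 in those of CD4 PBS and 8004 and 6034 in those of CD8 PBS. With DTx, Vim stood at 33246, 29508 and 22881 across the CD4 libraries and 28699.9, 40766 and 19023 across the CD8 libraries. Its changes with DTx, 2.10 ± 0.29 (log2, SE) in CD4 cells (adjusted p = 6.66e-04) and 2.02 ± 0.29 in CD8 cells (adjusted p = 0.00166), were the smallest of the 9 genes, although S100a10 changed less in CD8 cells with the replicate block and without CD8 PBS replicate 2 or CD8 DTx replicate 1. The Treg PBS libraries were even, with a standard deviation of 7.85% of their mean, and exceeded CD4 PBS by 1.88 ± 0.29 (adjusted p = 8.25e-04), short of 4-fold.

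Set against Treg cells of the PBS mice, the Tconv cells of DTx mice separated the 2 patterns. Anxa1 was higher by 3.11 ± 0.59 (log2, SE) in CD4 DTx (adjusted p = 0.00754) and by 3.08 ± 0.59 in CD8 DTx (adjusted p = 0.00631). Lgals3 was higher by 2.62 ± 0.38 in CD4 DTx (adjusted p = 0.00146) and by 3.31 ± 0.38 in CD8 DTx (adjusted p = 2.05e-04). These were 2 of the 9 genes in each comparison, beside 3.36% and 3.88% of all tested genes called higher, and the 2 whose DTx libraries all lay above those of Treg PBS, beside 10.2% and 8.71%. The Anxa1 means were 912% and 883% of the Treg PBS mean in CD4 DTx and CD8 DTx, and those of Lgals3 597% and 1017%. The other 7 genes were called in neither comparison, with means between 84.1% and 157% of that of Treg PBS in CD4 DTx and between 96.9% and 197% in CD8 DTx. Their 95% intervals reached down to -1.19 for Anxa2 in CD4 DTx and up to 2.20 for S100a6 in CD8 DTx, so equality was not shown. Without the replicate 3 libraries, Lgals3 in CD4 DTx kept a difference of 2.56 but was no longer called (adjusted p = 0.0627).

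The 9 genes were also compared between CD4 and CD8 cells. CD4 DTx against CD8 DTx gave 0 of 9 called by limma, edgeR and DESeq2 (1.64% of all tested genes were called by limma in either direction), and 0 of 9 had an unadjusted p under 0.05 in limma. The 95% intervals of Vim (-0.56 to 0.57), S100a10 (-0.69 to 0.66) and S100a11 (-0.77 to 0.87) lay inside 1 log2 unit on either side of 0. CD4 PBS against CD8 PBS gave 0 of 9 with limma and with edgeR (1.08% of all called by limma), and 1 had an unadjusted p under 0.05. That gene was Anxa2 (-1.48, adjusted p = 0.388), which DESeq2 called (adjusted p = 0.0428), as did limma with the replicate block (adjusted p = 0.0302). The change with DTx was compared between CD4 and CD8 cells by an interaction term, and 0 of 9 were called with limma, edgeR or DESeq2, with 0 at an unadjusted p under 0.05 in limma (0.0474% of all called). The value furthest from 0 was that of Lgals3, -1.16 (95% interval -2.47 to 0.14), a smaller rise in CD4 cells.

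**Figure D3:**
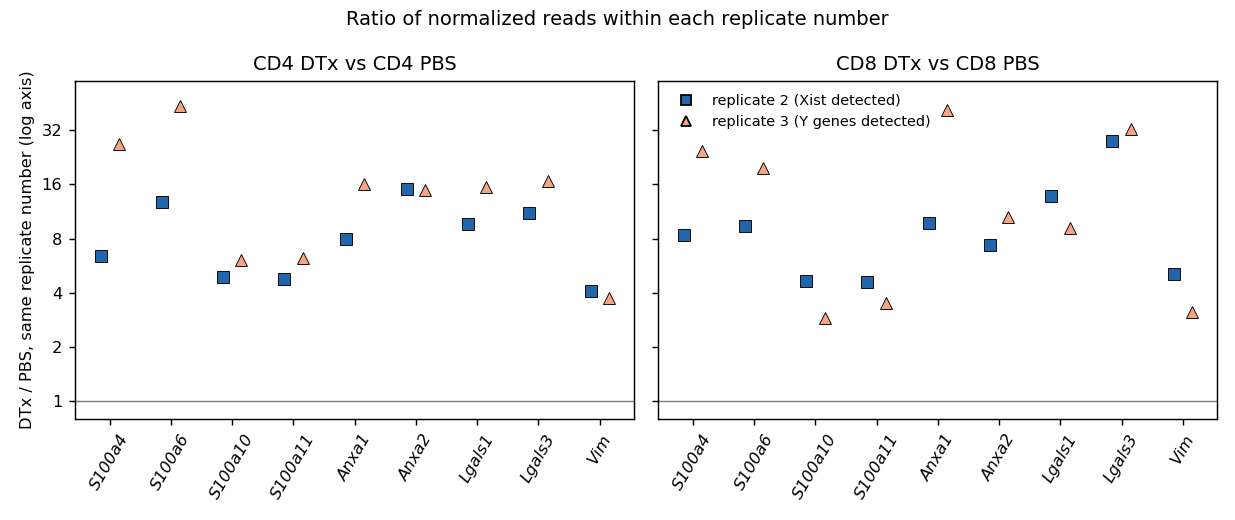
Ratio of normalized reads (log axis) in the DTx library to the PBS library with the same replicate number, for each of the 9 genes, in CD4 cells and in CD8 cells. All ratios lie above 1, from 2.91 for S100a10 to 43.7 for S100a6, in replicate 2 as in replicate 3.

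Replicate 3 held the lowest value in all 5 groups for 6 of the 9 genes, namely S100a6, S100a10, S100a11, Anxa1, Anxa2 and Lgals1, beside 4.61% of all tested genes. S100a4 and Vim were lowest there in 4 groups and Lgals3 in 3. The rise with DTx was present within replicates 2 and 3, as the plot of ratios by number shows. The DTx and PBS libraries came from different mice, so a shared number is not a pairing of animals. It could not be checked within replicate 1, which existed only in Treg PBS, CD4 DTx and CD8 DTx. In replicate 2 the ratio of DTx to PBS ran from 4.12 for Vim to 15.1 for Anxa2 in CD4 cells and from 4.61 for S100a11 to 27.9 for Lgals3 in CD8 cells. In replicate 3 it ran from 3.76 for Vim to 43.7 for S100a6 in CD4 cells and from 2.91 for S100a10 to 41.4 for Anxa1 in CD8 cells. Without the replicate 3 libraries, which leaves 1 library in each PBS Tconv group, all 9 changes with DTx stayed above 0 in both cell types. That of S100a11 was 2.77 in CD4 cells and 2.26 in CD8 cells. Fewer of the 9 genes were then called in both cell types, as were fewer of all tested genes.

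Markers of other cell types were read beside these genes, several of which myeloid and tumor cells also express. The summed level of 12 myeloid markers was 1294 to 4336 normalized reads in Treg PBS, 1465 to 1739.8 in CD4 PBS and 744 to 2476 in CD8 PBS, beside 227 to 2402 in CD4 DTx and 1901 to 3170.4 in CD8 DTx. The library with the lowest sum, CD4 DTx replicate 1, held the highest CD4 DTx values of 8 of the 9 genes, all but Anxa2. CD4 PBS replicate 2, with the lower sum of its pair, was likewise the higher in all 9 genes. The order was the reverse in Treg PBS and CD8 PBS. Treg PBS replicate 1, with the highest sum, was highest of its group in all genes but Anxa1 and Vim. CD8 PBS replicate 2 exceeded replicate 3 in the sum and in all 9 genes. CD8 DTx replicate 2, with the highest sum of its group, was highest in S100a6, Anxa2, Lgals1, Lgals3 and Vim only. In CD8 cells the sums of the DTx libraries overlapped that of CD8 PBS replicate 2 and exceeded that of replicate 3, and their part in the CD8 result was not tested. The neutrophil genes S100a8 and S100a9 peaked at 172 and 186 normalized reads, both in CD8 DTx replicate 2. The sums of 4 melanocyte markers were lower with DTx, at 89.0 to 170.2 in CD4 DTx against 435 and 448 in CD4 PBS, and at 60.7 to 125 in CD8 DTx against 629 and 171 in CD8 PBS, and stood highest in Treg PBS, at 727, 795 and 1197. The 4 genes did not pass the limma test with DTx in either cell type, and against Treg PBS 2 were lower in CD4 DTx and 1 in CD8 DTx. The sums of 3 erythroid genes were lower in part, at 0 to 1175 in CD4 DTx and 16.6 to 791 in CD8 DTx against 948 and 6567 in CD4 PBS and 1596 and 6570.2 in CD8 PBS. The sums of 4 NK markers were 3384 and 277 in the CD8 PBS libraries and 311, 5591 and 1987 in those of CD8 DTx. Leaving out both CD8 libraries numbered 2 left 8 of 9 genes called with DTx in CD8 cells, S100a11 being missed (adjusted p = 0.0515). The sums of 2 endothelial markers, mainly Pecam1, were 7367 and 7098 in the CD4 PBS libraries but 1779 to 2729 in those of CD4 DTx, and those of 4 B cell markers lay between 92.6 and 1296 in all libraries. Whether these transcripts came from other cells or from the T cells themselves was not tested, nor was the part of such cells in the results. The 1 fibroblast marker in the table stood at 35.8 or less.

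Relatives outside the 9 were read from lists of their families. Over all tested genes, 13.5% were called higher and 6.91% lower in Treg PBS against CD4 PBS. With DTx, 8.64% rose and 4.08% fell in CD4 cells, and 7.4% rose and 3.47% fell in CD8 cells. Of 13 other S100 genes 4 were in the table, of which 2 were higher in Treg PBS than in CD4 PBS, 1 rose with DTx in CD4 cells and 0 were called in CD8 cells. The 1 that rose was S100a13, at 745 and 503 normalized reads in the CD4 PBS libraries and 3627, 2158 and 1989.8 in those of CD4 DTx (log2 fold change 2.03 ± 0.48 SE, adjusted p = 0.0153). Of 7 other annexin genes, 4 were higher in Treg PBS than in CD4 PBS, 2 rose with DTx in CD4 cells and 1 in CD8 cells. Anxa4, a further phospholipid-binding annexin, was called in all 3 comparisons. It was read at 3920.4, 2056 and 2617 normalized reads across the Treg PBS libraries, 198 and 192 in those of CD4 PBS and 321 and 86.6 in those of CD8 PBS, and with DTx at 1921, 1471 and 1059 across the CD4 libraries and 2335, 2957 and 1238 across the CD8 libraries. All DTx libraries lay above all PBS Tconv libraries, and those of CD4 DTx lay below those of Treg PBS. The change was 2.88 ± 0.52 (log2, SE) in CD4 cells (adjusted p = 0.00303) and 3.61 ± 0.52 in CD8 cells (adjusted p = 0.00156). Anxa6 rose less, in CD4 cells, by 1.22 ± 0.27 (adjusted p = 0.0108). The median log2 fold change of the other annexins was 0.78 in CD4 cells and 0.79 in CD8 cells, and that of the other S100 genes 1.83 and 2.41. The S100 median covered 4 genes. Of these, the neutrophil genes S100a8 and S100a9 stood at 0 in CD4 PBS and at 24.3 or less in CD8 PBS.

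**Figure D4:**
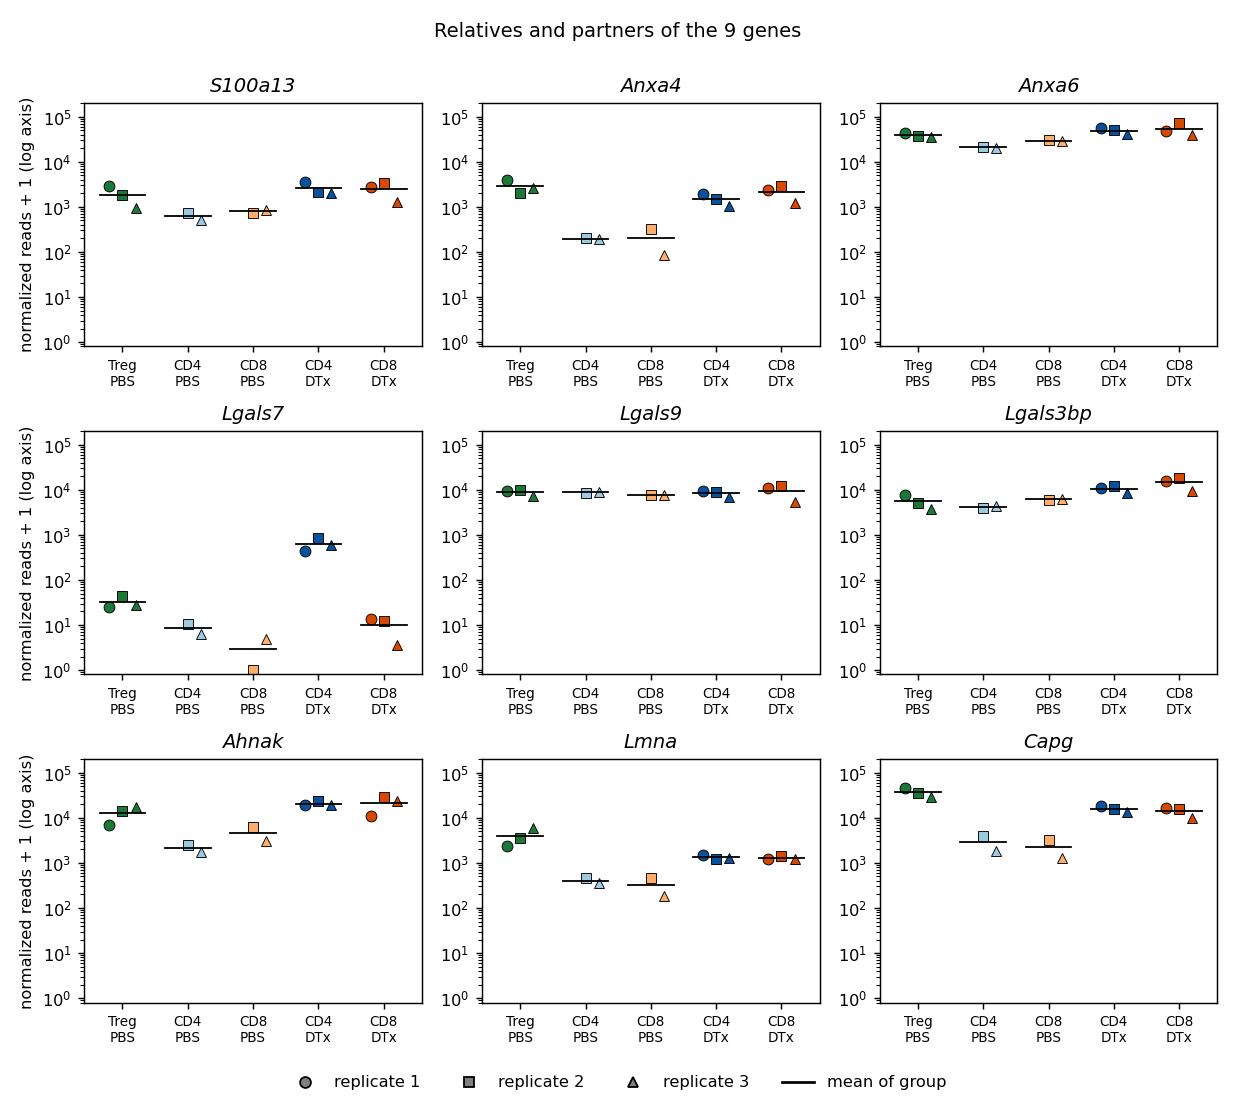
Normalized reads + 1 (log axis) of 9 relatives and partners in each of the 13 libraries, with a symbol for each replicate number and a line at each group mean. Lgals7 stands at 429 to 843 in CD4 DTx and at 43.3 or less elsewhere, and Capg is highest in Treg PBS.

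Of 6 other galectin genes and galectin-related genes in the table, 2 were higher in Treg PBS than in CD4 PBS, 3 rose with DTx in CD4 cells and 1 in CD8 cells. The matching shares of all tested genes were 13.5%, 8.64% and 7.4%. Lgals7, which encodes galectin-7, known mainly from keratinocytes, was read at 429, 843 and 585 normalized reads in CD4 DTx, 9.57 and 5.28 in CD4 PBS, 24.6, 43.3 and 27.1 in Treg PBS and 12.9, 11.6 and 2.69 in CD8 DTx. It stood out in CD4 DTx, 6.11 ± 0.80 above CD8 DTx (log2, SE, adjusted p = 0.00376) and 4.24 ± 0.80 above Treg PBS (adjusted p = 0.00702). Lgals3bp, whose product binds galectin-3, rose by 1.29 ± 0.31 in CD4 cells (adjusted p = 0.0176) and by 1.20 ± 0.31 in CD8 cells (adjusted p = 0.0303). Lgals9, which encodes galectin-9, was not called, with differences of -0.06 in CD4 cells (95% interval -0.71 to 0.59) and 0.23 in CD8 cells (-0.42 to 0.88).

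Partners of the 9 proteins were a mixed list. Of 13 tested, 4 were higher in Treg PBS than in CD4 PBS, 6 rose and 1 fell with DTx in CD4 cells, and 5 rose and 2 fell in CD8 cells. The matching shares of all tested genes were 13.5%, then 8.64% and 4.08%, and 7.4% and 3.47%. Ahnak, a very large scaffold protein that the S100a10 complex anchors at the membrane, was read at 2535 and 1789 normalized reads in CD4 PBS and 18982, 23065 and 19000.1 in CD4 DTx. It rose by 3.25 ± 0.45 (log2, SE) in CD4 cells (adjusted p = 6.28e-04) and by 2.18 ± 0.45 in CD8 cells (adjusted p = 0.00933). Spn, which encodes the galectin-1 ligand CD43, rose by 1.11 ± 0.17 in CD4 cells (adjusted p = 0.00105) and 1.09 ± 0.17 in CD8 cells (adjusted p = 0.00222). Cd7, which encodes another galectin-1 receptor, was read at 490.3, 629 and 372 in Treg PBS, 8295, 8706 and 5322 in CD4 DTx and 1138 and 847 in CD4 PBS. Like Anxa1 and Lgals3, Cd7 exceeded Treg PBS, by 3.90 ± 0.45 in CD4 DTx (adjusted p = 3.74e-04) and by 4.03 ± 0.45 in CD8 DTx (adjusted p = 1.71e-04). Unlike for those genes, both PBS Tconv groups also lay wholly above Treg PBS. Cd7 was read at 3155 to 3955 in CD8 PBS and at 3712 to 18037 in CD8 DTx. Havcr2, which encodes the galectin-9 receptor TIM-3, rose by 5.32 ± 0.46 in CD4 cells (adjusted p = 6.98e-05) and 4.17 ± 0.46 in CD8 cells (adjusted p = 4.96e-04). Lag3, the receptor gene for galectin-3 named above, rose by 4.31 ± 0.92 and 3.37 ± 0.92 (adjusted p = 0.00850 and 0.0355). In CD4 PBS, Lag3 stood at 1.37 and 7.93 normalized reads, the former below the floor of 3 reads, so the size of its CD4 change is uncertain. Plaur, the urokinase receptor gene, changed by -3.70 ± 0.90 in CD4 cells (adjusted p = 0.0179) and -4.21 ± 0.90 in CD8 cells (adjusted p = 0.0116). The median of the list was 0.11 in CD4 cells and 0.21 in CD8 cells.

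Enzymes that build the glycans galectins bind formed a further list. Of 9 tested, 2 rose and 0 fell with DTx in each cell type (8.64% and 7.4% of all tested genes rose in CD4 and CD8 cells), and Treg PBS was higher than CD4 PBS for 2 and lower for 2 (13.5% and 6.91% of all). Gcnt1, which branches O-glycans, rose by 4.45 ± 0.53 (log2, SE) in CD4 cells (adjusted p = 2.63e-04) and by 3.03 ± 0.53 in CD8 cells (adjusted p = 0.00421), and was 3.58 ± 0.53 higher in Treg PBS than in CD4 PBS (adjusted p = 6.06e-04). Mgat1, which opens the path to complex N-glycans, rose by 0.87 ± 0.21 in CD4 cells (adjusted p = 0.0149) and 0.72 ± 0.21 in CD8 cells (adjusted p = 0.0436). St6gal1, whose sialic acid cap hinders galectin-1 binding, differed by -1.95 ± 0.41 in Treg PBS against CD4 PBS (adjusted p = 0.00563). Mgat5, which makes N-glycan branches that galectin-3 prefers, was not called, with differences of 0.35 in CD4 cells (95% interval -0.96 to 1.66) and 0.26 in CD8 cells (-1.05 to 1.57).

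Structural genes accompanied Vim in part. Of 5 other filament genes tested, 3 were higher in Treg PBS than in CD4 PBS, 2 rose with DTx in CD4 cells and 1 in CD8 cells. The matching shares of all tested genes were 13.5%, 8.64% and 7.4%. Lmna, which encodes lamin A/C, was read at 2368, 3611 and 6031 normalized reads across the Treg PBS libraries, 452 and 353 in those of CD4 PBS and 452 and 181 in those of CD8 PBS, and with DTx at 1521, 1234 and 1281 across the CD4 libraries and 1244, 1419.5 and 1219 across the CD8 libraries. It rose by 1.74 ± 0.40 (log2, SE) in CD4 cells (adjusted p = 0.0129) and 2.17 ± 0.40 in CD8 cells (adjusted p = 0.00546) but, unlike any of the 9 genes, was called lower than in Treg PBS, at -1.47 ± 0.36 in CD4 DTx (adjusted p = 0.0259) and -1.53 ± 0.36 in CD8 DTx (adjusted p = 0.0194). Of 18 actin cytoskeleton genes, Treg PBS was higher than CD4 PBS for 4 and lower for 1, beside 13.5% and 6.91% of all tested genes. With DTx, 6 rose in CD4 cells and 4 in CD8 cells, beside 8.64% and 7.4% of all, and 0 fell, beside 4.08% and 3.47%. Capg, which encodes an actin-capping protein, rose by 2.56 ± 0.40 in CD4 cells (adjusted p = 0.00136) and 2.76 ± 0.40 in CD8 cells (adjusted p = 0.00171), and Crip1 by 2.17 ± 0.43 and 1.70 ± 0.43 (adjusted p = 0.00552 and 0.0257). The median of the actin list was 0.67 in CD4 cells and 0.83 in CD8 cells.

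**Figure D5:**
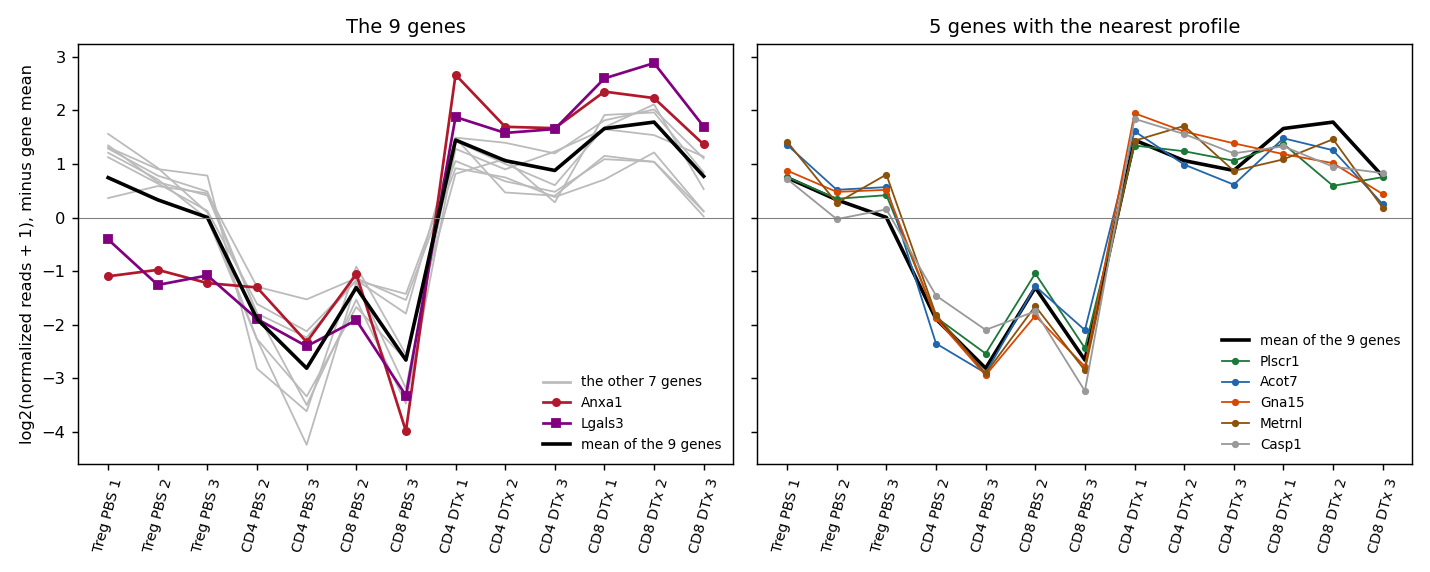
Centred log2(normalized reads + 1) in each of the 13 libraries, for the 9 genes and their mean (left) and for that mean with the 5 other genes of nearest profile (right). Anxa1 and Lgals3 fall below the mean in the 3 Treg PBS libraries.

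Likeness to the 9 was measured as the root mean square difference of centred log2 values over the 13 libraries. Nearest to the mean of the 9 were Plscr1 (0.387), a phospholipid scramblase gene, Acot7 (0.387), Gna15 (0.425), Metrnl (0.436) and Casp1 (0.456), as drawn in the plot of profiles. Plscr1 was read at 1315, 992 and 1039 normalized reads across the Treg PBS libraries, 213 and 133 in those of CD4 PBS and 377 and 143 in those of CD8 PBS, and with DTx at 1979, 1837 and 1624 across the CD4 libraries and 2020.4, 1173 and 1314 across the CD8 libraries. Among the 9, Lgals1 lay nearest to their mean (0.375), while Anxa1 (0.983) and Lgals3 (0.878) lay furthest and each had the other as its nearest of the 9 (0.508). The gene outside the 9 nearest to Anxa1 was Serpinb1a (0.452), an inhibitor of neutrophil-type proteases, read at 239, 335 and 363 normalized reads across the Treg PBS libraries, 329 and 161 in those of CD4 PBS and 303 and 107 in those of CD8 PBS, and with DTx at 5576, 3674 and 2913 across the CD4 libraries and 3039, 2754 and 1553 across the CD8 libraries. It kept the Anxa1 pattern, low in all PBS groups. The gene nearest to Lgals3 was Il12rb2 (0.574), a subunit of the interleukin-12 receptor of type 1 effector cells, at 995 to 1138 in Treg PBS, 2646 to 8049 in CD4 DTx and 6428 to 9871 in CD8 DTx. For the others the nearest were Dkkl1 for S100a4 (0.355), Gm14005 for S100a6 (0.459), Prr13 for S100a10 (0.235), Cxcr3 for S100a11 (0.278), Ccnf for Anxa2 (0.354), Acot7 for Lgals1 (0.391) and Mapre2 for Vim (0.195). The measure is a description, since all profiles come from the same 13 libraries.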

How the data were processed

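Bulk RNA from 13 libraries of sorted tumor T cells was analysed from 1 deposited table. The submitters' notes and methods name low-input SMART-type libraries, Cutadapt, hisat2, the NCBIM37 (mm9) genome, uniquely mapped reads and DESeq2. The read counter and strand setting are not given in the sources used here. The authors deposited a normalized signal per gene, which they label as fragments scaled to depth, but the columns summed to between 21793496 and 27493693, and 100% of values were whole multiples of 1 read to within 0.01 of a read, so whole reads were recovered. Columns were matched to samples by title.

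A gene was tested if it reached 10 normalized reads in 2 or more libraries. The test was limma 3.58.1 (R 4.3.3, eBayes with a mean trend) on log2(value + 1), with all 13 libraries, 1 mean per group and no covariates. This design was written for depth-scaled fragments, and its pseudocount and minimum were kept. Calls needed an adjusted p under 0.05, and a stricter call needed a change over 4-fold, as the study used. The edgeR 4.0.16 quasi-likelihood and DESeq2 1.42.0 Wald tests were run on recovered reads as alternatives, beside other pseudocounts, filters, scalings and samples. The code was tested on simulated data. Libraries of a group differed by far more than sampling noise. Floors of 3 reads cover counting error only.

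The 9 genes and all lists were chosen with earlier results of these data known. List genes named were drawn from those called in Treg PBS against CD4 PBS, CD4 DTx against CD4 PBS or CD8 DTx against CD8 PBS, up to 4 per list and comparison by size of change, with Ahnak, Lmna, Mgat5 and Lgals9 added. Nearest genes were the 5 nearest to the mean of the 9 and 1 per gene. Replicate numbers come from the titles. The deviations of same-numbered CD4 DTx and CD8 DTx libraries from their group means correlated across genes at 0.36, 0.21 and 0.59, so these libraries varied together by number. Whether they shared mice, sex or day as the source of this was not tested. The other comparisons had fewer pairs, or a pair at 0.1 or less. Same-numbered CD4 DTx and CD4 PBS libraries correlated at -0.21 and -0.31, and CD8 DTx and CD8 PBS libraries at 0.08 and -0.006, so the numbers did not pair DTx with PBS. Promoter windows are from RefSeq and levels per kilobase use 1 annotated transcript a gene.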

Additional observations from a re-analysis of the deposited data

How the results depend on the processing

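Of the 9 genes, the alternatives called 6 to 8 in Treg PBS against CD4 PBS and 8 to 9 in CD4 DTx against CD4 PBS, and each of them called 2 in CD8 DTx against Treg PBS. In CD8 DTx against CD8 PBS, the fit on the groups compared alone called 1, for a cause that was not tested, 1 library left out at a time gave 6 to 9, and leaving out replicate 3 throughout gave 5. In CD4 DTx against Treg PBS, leaving out replicate 3 throughout called 1 and each other leave-out 2. In Treg PBS against CD8 PBS leaving out 1 library called 5 to 9, leaving out replicate 3 throughout 5, and the call with more than 4-fold left 5. In CD4 PBS against CD8 PBS, DESeq2 and the replicate block each called 1. Both sets left out together (replicate 3, and the CD8 libraries numbered 2) were chosen after seeing the data. Where 1 library remained in a group, it was assumed to vary like the other groups. Such fits also called fewer of all tested genes in CD4 DTx against CD4 PBS, in CD8 DTx against CD8 PBS and in Treg PBS against either. No depth limit touched the 9 genes, whose lowest value was 98.6 normalized reads.

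The replicate block called 8 of 9 in Treg PBS against CD4 PBS (Lgals3 added) and 1 in CD4 PBS against CD8 PBS (Anxa2 added), and changed no other call of the 9 genes.

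Counts over all genes moved by more than 1.5 times from 1612 in CD4 DTx against CD4 PBS, 208 in CD4 DTx against CD8 DTx, 1002 in CD4 DTx against Treg PBS, 137 in CD4 PBS against CD8 PBS, 1377 in CD8 DTx against CD8 PBS, 6 in the interaction as follows. With only the groups compared, 983 in CD4 DTx against CD4 PBS, 239 in CD8 DTx against CD8 PBS, 640 in CD4 DTx against Treg PBS, 37 in CD4 PBS against CD8 PBS, 70 in CD4 DTx against CD8 DTx. With DESeq2 on recovered reads, 1543 in CD4 DTx against Treg PBS, 326 in CD4 PBS against CD8 PBS, 530 in CD4 DTx against CD8 DTx, 88 in the interaction. With the replicate block, 1739 in CD4 DTx against Treg PBS, 414 in CD4 DTx against CD8 DTx. With edgeR on recovered reads, 131 in CD4 DTx against CD8 DTx. With a pseudocount of 0.1, 19 in the interaction. With no mean trend, 12 in the interaction. Equal library totals moved the median of all genes by -0.20 in CD8 DTx against CD8 PBS, -0.14 in CD4 DTx against CD4 PBS, -0.11 in Treg PBS against CD8 PBS and -0.10 in Treg PBS against CD4 PBS, and ended no call of the 9 genes. Leaving out 1 library moved these counts as far. In Treg PBS against CD4 PBS the 2581 became 1271 without CD4 PBS 2 and 1189 without CD4 PBS 3. In CD4 DTx against CD4 PBS the 1612 became 843 without CD4 PBS 2 and 658 without CD4 PBS 3. In CD8 DTx against CD8 PBS the 1377 became 792 without CD8 PBS 2, 202 without CD8 PBS 3, 863 without CD8 DTx 1, 784 without CD8 DTx 2 and 2495 without CD8 DTx 3. In CD4 DTx against Treg PBS the 1002 became 578 without Treg PBS 1, 567 without Treg PBS 2 and 587 without CD4 DTx 3. In CD8 DTx against Treg PBS the 1089 became 708 without Treg PBS 2. In Treg PBS against CD8 PBS the 2367 became 1315 without CD8 PBS 2 and 762 without CD8 PBS 3. In CD4 PBS against CD8 PBS the 137 became 83 without CD4 PBS 2 and 57 without CD8 PBS 2. In CD4 DTx against CD8 DTx the 208 became 61 without CD4 DTx 2, 95 without CD4 DTx 3, 82 without CD8 DTx 1 and 81 without CD8 DTx 2. The interaction ranged from 0 to 14.

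Of 1413 single-gene values, 1316 kept direction and side of the threshold, 26 lost a call, 6 gained one and 65 changed sign, with none of the 65 called in either fit; the cause was not tested. With TMM scaling, S100a11 in CD4 DTx against Treg PBS was 0.0242. With edgeR on recovered reads, S100a11 in CD4 DTx against Treg PBS was 0.0610 and Vim in CD4 DTx against CD8 DTx was -0.0394. With DESeq2 on recovered reads, S100a11 in CD4 DTx against Treg PBS was 0.0180 and Vim in CD4 DTx against CD8 DTx was -0.0481. With equal library totals, S100a10 in CD4 DTx against CD8 DTx was 0.0515. Without the replicate 3 libraries, S100a10 in CD4 DTx against Treg PBS was -0.0145, Lgals1 in CD4 DTx against Treg PBS was -0.0292, S100a11 in CD8 DTx against Treg PBS was 0.0901, Anxa1 in CD4 PBS against CD8 PBS was -0.252, S100a11 in CD4 DTx against CD8 DTx was -0.118, Anxa1 in CD4 DTx against CD8 DTx was -0.111, Vim in CD4 DTx against CD8 DTx was -0.127, Anxa1 in the interaction was 0.141 and Lgals1 in the interaction was -0.0849. Without both CD8 libraries numbered 2, S100a10 in CD8 DTx against Treg PBS was -0.0264, Vim in CD8 DTx against Treg PBS was -0.0548, S100a4 in CD4 PBS against CD8 PBS was 0.830, Vim in CD4 PBS against CD8 PBS was 0.129, S100a10 in CD4 DTx against CD8 DTx was 0.135 and S100a6 in the interaction was -0.0273. Leaving out 1 library at a time gave sign changes with these ranges. In CD4 DTx against Treg PBS, S100a10 ranged from -0.143 to 0.357, S100a11 from -0.369 to 0.250 and Lgals1 from -0.233 to 0.501. In CD8 DTx against Treg PBS, S100a10 ranged from -0.132 to 0.437, S100a11 from -0.278 to 0.288 and Vim from -0.0548 to 0.495. In Treg PBS against CD8 PBS, Anxa1 ranged from -0.0454 to 2.89. In CD4 PBS against CD8 PBS, S100a4 ranged from -1.11 to 0.830, Anxa1 from -0.761 to 2.17, Lgals3 from -0.233 to 1.18 and Vim from -0.278 to 0.129. In CD4 DTx against CD8 DTx, S100a10 ranged from -0.328 to 0.159, S100a11 from -0.308 to 0.258, Anxa1 from -0.300 to 0.213 and Vim from -0.278 to 0.272. In the interaction, S100a4 ranged from -1.13 to 0.807, S100a6 from -0.213 to 1.77, Anxa1 from -2.15 to 0.789, Anxa2 from -0.178 to 1.46, Lgals1 from -0.328 to 0.746 and Vim from -0.203 to 0.346.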
